A study of Mus musculus with 4 samples.

Results

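RNA levels of the genes of the ATF4, CHOP and ATF3 stress response were compared in quadriceps muscle of mice with and without transgenes for NF90 and NF45. The group was fixed by name as 10 genes: the transcription factor genes Atf4, Atf5, Atf3 and Ddit3 (which encodes CHOP), the feedback and signalling genes Trib3 and Sesn2, the enzyme genes Asns and Chac1, and the secreted factor genes Gdf15 and Fgf21. Of these, 9 were read by a probe set paired with that symbol alone, among 22180 genes on the array, and each of the 9 had 1 such probe set. Gdf15 was not analysed here.

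The 4 arrays came from 4 mice. There were 2 wild-type mice (WT), a male of 17 to 18 weeks (replicate 1) and a female of 16 weeks (replicate 2), and 2 NF90-NF45 double transgenic mice (dbTg), a male (replicate 1) and a female (replicate 2), both of 16 weeks. NF90 binds double-stranded RNA, and NF45 is its partner protein. The sources used here do not name the promoter that drives the transgenes, the strain or the number of founder lines. Ilf2, which encodes NF45, read 5.03 and 5.04 in WT and 10.36 and 10.16 in dbTg on the log2 scale. All 12 muscle fibre markers passed the intensity filter, with 0 called by limma (smallest p for Ryr1, at -0.88, and Pygm, at -0.43) and, at an unadjusted p below 0.05, 1 higher and 2 lower. Of all 13308 tested genes, 14% were higher and 4.64% lower at that unadjusted level (18.7% together), the background for every such count below. Macrophage and leukocyte markers differed between the groups. At a limma adjusted p under 0.05, 13 of 19 tested rose in dbTg and none fell, beside 2.01% and 0.203% of all tested genes. The sum of the linear values of the 20 markers on the array was 168 and 148 in WT and 859 and 736 in dbTg. The called markers with the smallest p were Ctss (difference 4.23), Cd68 (3.76), Cd53 (2.79) and Ptprc (2.79). The T cell marker Cd3e, named because it was not tested, lay below the filter.

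In this response, kinases that sense amino acid shortage, unfolded proteins, double-stranded RNA or haem deficiency phosphorylate the initiation factor eIF2alpha. General translation then falls while translation of the Atf4 messenger RNA rises, so that ATF4 protein can increase without more Atf4 RNA. ATF4 pairs with C/EBP-type partners on composite DNA elements and switches on genes for amino acid supply and, under lasting stress, Ddit3, Atf3, Trib3 and Chac1. In skeletal muscle the pathway is known from mitochondrial myopathies, where fibres secrete FGF21 and GDF15. The arrays read RNA and not protein or phosphorylation.

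The promoters are shown for the members whose RNA differed between the groups, Atf3, Ddit3 and Chac1, and for Asns, a textbook ATF4 target whose RNA was not called. Sequences are the 250 bases before the annotated start of each gene, from RefSeq on build GRCm38.p6, 5′ to 3′ on the strand of the gene. Capitals mark the core of the C/EBP-ATF composite element, TGATGNAA, on either strand. The windows lie at chr1:191183334-191183583 on the minus strand (Atf3), chr10:127290543-127290792 on the plus strand (Ddit3), chr2:119350992-119351241 on the plus strand (Chac1) and chr6:7693210-7693459 on the minus strand (Asns).
Atf3: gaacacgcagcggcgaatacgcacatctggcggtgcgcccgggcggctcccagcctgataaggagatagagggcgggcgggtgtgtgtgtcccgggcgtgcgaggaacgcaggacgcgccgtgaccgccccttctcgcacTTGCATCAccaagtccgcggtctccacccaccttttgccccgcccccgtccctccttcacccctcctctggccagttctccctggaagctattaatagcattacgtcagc
Ddit3: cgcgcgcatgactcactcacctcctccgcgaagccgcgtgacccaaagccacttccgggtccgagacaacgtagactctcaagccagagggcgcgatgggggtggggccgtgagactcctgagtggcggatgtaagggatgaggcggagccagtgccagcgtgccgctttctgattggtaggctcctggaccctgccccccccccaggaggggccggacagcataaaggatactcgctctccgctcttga
Chac1: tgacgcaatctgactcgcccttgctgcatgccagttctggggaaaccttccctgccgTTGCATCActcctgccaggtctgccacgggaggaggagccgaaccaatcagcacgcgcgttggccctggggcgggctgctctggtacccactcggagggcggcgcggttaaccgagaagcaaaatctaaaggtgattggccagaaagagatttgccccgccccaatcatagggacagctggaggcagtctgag
Asns: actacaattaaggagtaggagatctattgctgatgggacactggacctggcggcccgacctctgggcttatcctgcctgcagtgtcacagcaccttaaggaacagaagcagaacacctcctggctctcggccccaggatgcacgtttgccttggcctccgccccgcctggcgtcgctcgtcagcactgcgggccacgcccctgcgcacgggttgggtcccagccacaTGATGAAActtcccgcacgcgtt

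Atf3 and Chac1 carried the same 8 letters, TTGCATCA, which is the core read on the opposite strand. The match began 110 bases before the start of Atf3 and 193 bases before the start of Chac1. Asns carried TGATGAAA, 23 bases before its start. Over windows from 250 bases before to 50 bases after the start, the core was found for 5 of the 10 genes. The other 2 were Fgf21 (TTGCATCA, 139 bases before the start) and Trib3 (TTACATCA, 15 bases into the transcript). In all, 5 of the 12 promoters listed for these genes held the core, against 3.97% of 32851 promoters of the same length. The genes were grouped as members of this response and the core was chosen as its element, so a higher share was likely beforehand. The cyclic AMP response element TGACGTCA was in 0 of the 12 (1.79% of all promoters) and the endoplasmic reticulum stress element (ERSE, in its 19-letter form with the CCAAT and CCACG parts) in 0 of the 12 (0.119%). Both strands were searched, and no match overlapped one of another motif. Ddit3 held none of these motifs in its window. Only these forms and this window were searched, so variant letters and sites further away were not looked for. A match is a run of letters and was not measured as a bound site. Of the members that held the core upstream, 1 rose (Atf3), 1 fell (Chac1), Asns was not called and Fgf21 was not tested.

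In dbTg muscle the RNA of Atf3 and Ddit3 was higher and that of Chac1 was lower, while Atf4 itself and the other tested members were not called. Of the 9 genes, 8 had a mean over all arrays above the intensity filter of 1.48 on the log2 scale and were tested. Sesn2, at a mean of 1.49, lay just inside the filter and Fgf21, at 1.17, outside it. The WT mean of Sesn2 was 1.40, below the filter, and the gene passed it through its male dbTg array, at 1.92. In limma 2 of the 8 rose and 1 fell at an adjusted p under 0.05, that is 3 of 8, where 2.01% of the 13308 tested genes rose and 0.203% fell (2.21% together). The median difference of the 8 was 0.10 on the log2 scale, beside 0.09 for all tested genes. Each array stands for another mouse, so the spread includes differences between mice, sexes and, in WT, ages.

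**Figure D1:**
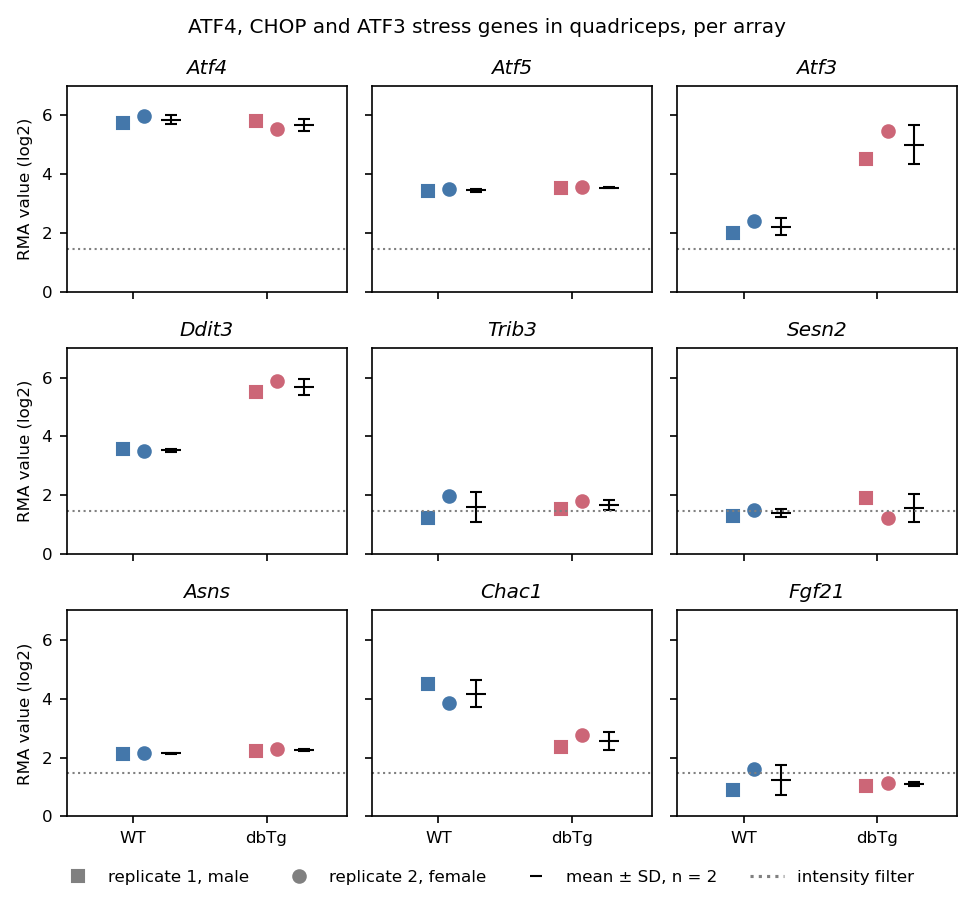
Values of the 9 genes on each array (RMA, log2 scale; squares are replicate 1, male, circles replicate 2, female) with the mean and SD of each group (n = 2) and the intensity filter of 1.48 as a dotted line. Both dbTg values of Atf3 and Ddit3 lie above both WT values, both dbTg values of Chac1 lie below both WT values, and Trib3, Sesn2 and Fgf21 lie around the filter.

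Atf4, the bZIP factor at the centre of the response, read 5.74 and 5.97 in WT and 5.81 and 5.52 in dbTg (log2 scale). The groups overlapped, since the male dbTg value lay between the WT values. The difference, dbTg minus WT, was -0.19 (SE 0.19, 95% confidence interval -0.64 to 0.26, limma adjusted p = 0.644), and the interval does not reach a doubling or a halving of Atf4 RNA. Atf5, a related factor whose translation is also raised when eIF2alpha is phosphorylated, read 3.42 and 3.49 in WT and 3.53 and 3.56 in dbTg. Its difference was 0.09 (SE 0.20, interval -0.39 to 0.57, adjusted p = 0.857) and -0.12 after quantile normalization. Its dbTg values lay just above its WT values, with a smallest gap of 0.04 between any pair of arrays.

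Atf3, a stress-induced bZIP repressor and activator, had the highest difference of the tested members. The probe set (17231033; gene at chromosome 1, 191170296 to 191183333) read 2.02 and 2.42 in WT and 4.53 and 5.47 in dbTg on the log2 scale. Every dbTg value exceeded every WT value by at least 2.11. The group means were 2.22 ± 0.28 and 5.004 ± 0.66 (SD, n = 2 each), which is a 6.89-fold rise (log2 difference 2.78, SE 0.34, 95% confidence interval 1.97 to 3.60, limma adjusted p = 0.0183). It was 2.51 in the male pair and 3.05 in the female pair. The female dbTg mouse was 0.94 above the male one, more than the 0.40 between the WT mice. Leaving out the male dbTg array gave 3.25 and leaving out the female one 2.31, either of which ended the call. With 1 array of a group left out, the residual spread comes from the other group only. Across the alternatives that kept all 4 arrays, the limma adjusted p ran from 0.01315 to 0.0389.

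Ddit3 encodes CHOP, the C/EBP-family factor known for promoting cell death under lasting endoplasmic reticulum stress. Its probe set (17237978; chromosome 10, 127290793 to 127296291) read 3.56 and 3.49 in WT and 5.50 and 5.87 in dbTg. The WT arrays lay within 0.07 of each other and the dbTg arrays stood at least 1.94 above them. From 3.53 ± 0.05 to 5.69 ± 0.26 (SD, n = 2 each), Ddit3 rose 4.47-fold (log2 difference 2.16, SE 0.21, interval 1.67 to 2.65, adjusted p = 0.00756), the smallest adjusted p of the tested members. The male pair differed by 1.94 and the female pair by 2.38. Here too the call ended when the male dbTg array (2.35) or the female one (1.97) was left out. Across the alternatives that kept all 4 arrays, the limma adjusted p ran from 0.00515 to 0.0386.

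In these bulk samples, more RNA per cell and more cells of an expressing type cannot be told apart. The macrophage and leukocyte markers given above were higher in the same mice as Atf3 and Ddit3, with a median difference of 1.80 over the 19 tested. So were fibroblast markers, with 10 of 10 positive differences (median 0.59; Thy1 called, at 1.05; 5 higher at an unadjusted p below 0.05, beside 14% of all genes) and summed linear values of 1024 and 890 in WT and 1306 and 1391 in dbTg. Adipocyte markers had 8 of 9 positive differences (median 0.52). Adipoq and Lep were called by limma, at 1.47 and 1.31, and 5 were higher at an unadjusted p below 0.05. Thy1 and Lep had WT means of 1.13 and 1.26, below the intensity filter. Both passed it through their dbTg arrays, with means of 2.175 and 2.575. The summed linear values of the adipocyte list were 1783 and 1547 in WT and 1659 and 1907 in dbTg, which overlap. Car3, named after its values were seen, was the brightest of these markers and dominates that sum. It read 10.52 and 10.14 in WT and 10.10 and 10.42 in dbTg (difference -0.07), the only negative difference of the list. The part of these cell types in the rise of either gene was not tested.

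Trib3, a pseudokinase that is induced by CHOP and ATF4 and restrains them, read 1.25 and 1.97 in WT and 1.55 and 1.80 in dbTg. The dbTg values lay between the WT values. The difference was 0.07 (SE 0.27, interval -0.57 to 0.71, adjusted p = 0.925) and turned negative when the male WT array (-0.29) or the female dbTg array (-0.05) was left out. Sesn2, a leucine sensor that holds back mTORC1, read 1.31 and 1.49 in WT and 1.92 and 1.24 in dbTg. The dbTg values lay on both sides of the WT values, with a difference of 0.18 (SE 0.25, interval -0.43 to 0.78, adjusted p = 0.767) that was -0.16 when the male dbTg array was left out. Both genes sit near the low end of the range of the array, where a difference in RNA is compressed.

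Asns, asparagine synthetase, read 2.13 and 2.15 in WT and 2.22 and 2.27 in dbTg. Its arrays agreed closely within each group, and the groups did not overlap by a margin of 0.08. The difference was 0.11 (SE 0.20, interval -0.36 to 0.58, limma adjusted p = 0.824), so the interval leaves room for a modest change in either direction. Asns also read below the upper quartile of every array (2.78 to 2.99), so a difference could be compressed here too. Counted without a test, 4 of the 8 tested members (Atf3, Ddit3, Atf5 and Asns) had both dbTg values above both WT values and 1 (Chac1) had both below. Among all tested genes this held for 33.7% and 16.3%.

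Chac1, the gamma-glutamyl cyclotransferase that degrades glutathione and is a target of the ATF4 and CHOP pathway, went the other way from Atf3 and Ddit3. Its probe set (17374807; chromosome 2, 119351242 to 119354326) read 4.50 and 3.84 in WT and 2.35 and 2.78 in dbTg on the log2 scale. The lower WT value still lay 1.06 or more above both dbTg values. The means were 4.17 ± 0.47 in WT and 2.56 ± 0.30 in dbTg (SD, n = 2 each), so that WT was 3.05-fold higher (log2 difference -1.61, SE 0.29, interval -2.31 to -0.91, adjusted p = 0.0494). The difference was -2.15 in the male pair and -1.06 in the female pair. The adjusted p lay at the threshold: the call was lost with the replicate number as a block (adjusted p = 0.11), after quantile normalization (0.0554), without an intensity filter (0.0676), with the filter at the 20th percentile (0.0595), without an intensity trend (0.0522) and when the male or the female dbTg array was left out (0.284 each). Its difference stayed negative in every alternative, between -1.94 and -1.28. Across the alternatives that kept all 4 arrays, the limma adjusted p ranged from 0.0404 to 0.11. Leukocyte markers moved in the opposite direction to Chac1, and endothelial markers in the same direction (12 of 12 tested with negative differences, median -0.45, 0 called by limma and 5 lower at an unadjusted p below 0.05, beside 4.64% of all genes). Cdh5, a cadherin of endothelial junctions, and Kdr, a receptor of VEGF, each differed by -0.85. The summed linear values of the endothelial markers were 356 and 394 in WT and 218 and 262 in dbTg. Muscle fibre markers had 8 of 12 negative differences (median -0.13), and smooth muscle and pericyte markers 4 of 8 (median -0.07). The part of these cell types in the fall of Chac1 was not tested.

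**Figure D2:**
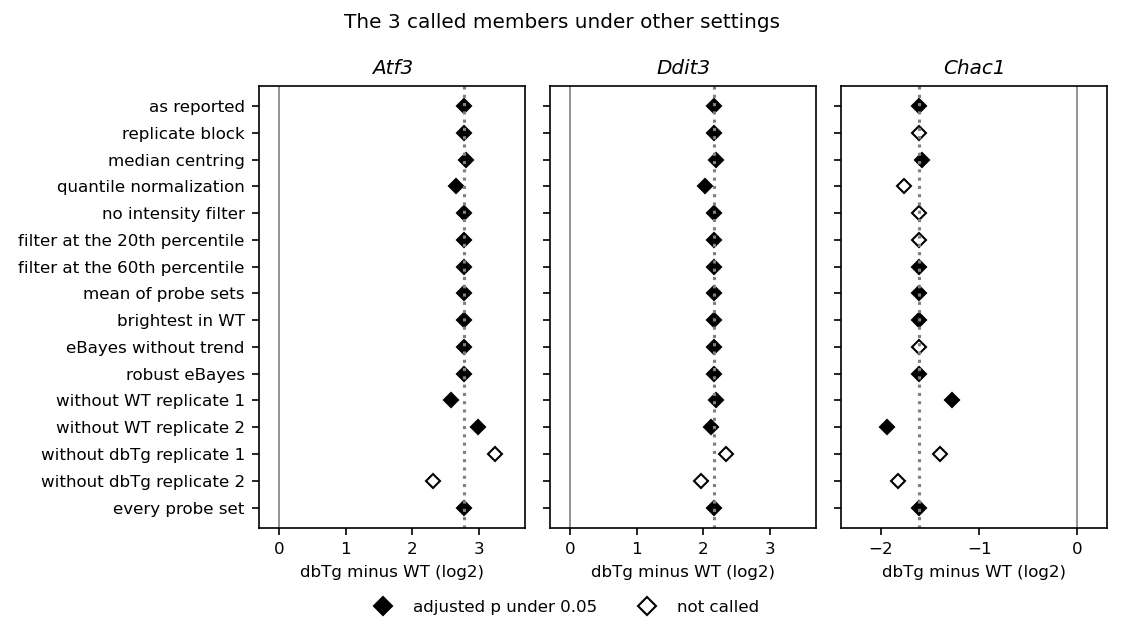
Difference of Atf3, Ddit3 and Chac1, dbTg minus WT on the log2 scale, as reported and under 15 other settings (filled diamonds have an adjusted p under 0.05). Atf3 and Ddit3 stay called in 13 of the 15 settings, all but those without 1 dbTg array, and Chac1 in 8 of the 15.

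Fgf21, the endocrine growth factor, read 0.88 and 1.59 in WT and 1.05 and 1.13 in dbTg, with a difference of -0.15 and no test. Its dbTg values lay between the WT values. Among the receptors of the secreted members, 4 of 7 were tested and 0 were called by limma (0 at an unadjusted p below 0.05, median 0.16). The co-receptor gene of FGF21, Klb, differed by 0.39 and the receptor gene Fgfr1 by 0.21. Klb had a WT mean of 1.34, below the filter, and passed it through its male dbTg array, at 2.01. The 3 receptor genes not tested, Fgfr2, Fgfr3 and Gfral, lay below the filter.

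**Figure D3:**
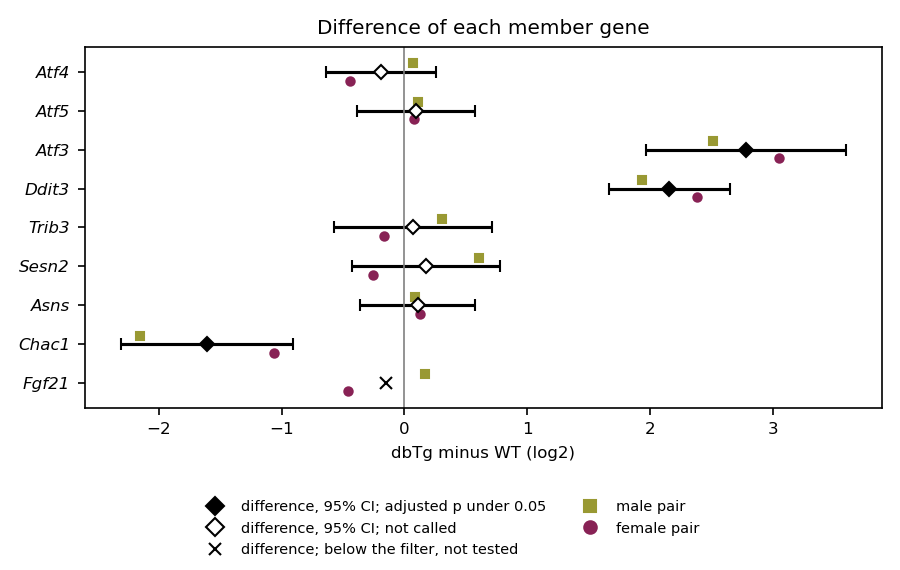
Difference of each gene, dbTg minus WT on the log2 scale, with its 95% confidence interval from limma (diamonds; filled where the adjusted p is under 0.05) and the differences in the male pair (squares) and the female pair (circles); Fgf21, below the filter, is a cross. Atf3 and Ddit3 lie at 2.78 and 2.16 and Chac1 at -1.61, each with both pairs on the same side of 0, and the other 5 tested genes lie between -0.19 and 0.18.

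By likeness of pattern, the tested genes closest to Atf3 over the 4 arrays (Euclidean distance of values centred on each gene's mean) were Postn, which encodes the matrix protein periostin (distance 0.35), Slfn2, a schlafen family gene (0.53), and Phf11b (0.54). Postn read 3.46 and 3.52 in WT and 5.52 and 6.76 in dbTg, with the female dbTg mouse highest as for Atf3. Closest to Chac1 were Gpcpd1, a phosphodiesterase gene (0.34), Nos1, the neuronal nitric oxide synthase gene (0.35), and Smyd2, a lysine methyltransferase gene (0.38). Smyd2 read 7.28 and 6.29 in WT and 5.32 and 5.58 in dbTg, with the male WT mouse highest as for Chac1, and it was not called (difference -1.34, limma adjusted p = 0.0865). All these genes were picked for nearness to the member, so a shared highest mouse follows from that choice.

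The genes upstream of Atf4 were not called. Of 11 tested genes for eIF2alpha kinases, phosphatase subunits and the exchange factor eIF2B, 0 passed the threshold in limma and at an unadjusted p below 0.05, 2 were higher and 0 lower, a share near the 18.7% of all genes (median 0.27, 0.06 after quantile normalization and 0.03 when the female WT array was left out). Those 2 were Ppp1r15b, a phosphatase subunit that reverses the phosphorylation, with a difference of 0.68 (adjusted p = 0.179), and Eif2ak3, the kinase PERK of the endoplasmic reticulum, with 0.55 (adjusted p = 0.183). Chosen after its values were seen, Eif2ak2, the double-stranded RNA-activated kinase PKR, read 3.64 and 3.72 in WT and 3.59 and 4.51 in dbTg (difference 0.37, adjusted p = 0.591). The female dbTg array alone was high.

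Genes of the amino acid branch that ATF4 is known to switch on had differences of both signs. Of 12 tested synthesis genes 0 rose and 1 fell: Gpt2, the mitochondrial alanine aminotransferase, read 6.77 and 7.10 in WT and 5.79 and 5.59 in dbTg (log2 difference -1.25, adjusted p = 0.028; -0.99 to -1.51 over the pairs of arrays), and lost its call with the replicate number as a block and when either dbTg array was left out. At an unadjusted p below 0.05, 1 was higher and 2 were lower, beside 14% and 4.64% of all genes, with a list median of -0.06 (-0.12 to 0.04 with 1 array left out). The serine synthesis gene Psat1 and the folate enzyme gene Aldh1l2, named after their values were seen, differed by 1.06 and -0.95 (adjusted p = 0.0817 and 0.0974). Of 6 tested amino acid transporters 0 were called by limma, and at an unadjusted p below 0.05, 3 were higher and 0 lower, beside 14% and 4.64% of all genes (median 0.54). Slc38a1 and Slc1a5, both glutamine carriers, differed by 1.11 (adjusted p = 0.0578) and 0.88 (adjusted p = 0.0813). The 4 transporter genes not tested, Slc1a4, Slc7a1, Slc7a3 and Slc7a11, lay below the filter. Of 13 cytosolic tRNA synthetases 0 were called, 0 were higher and 4 were lower at an unadjusted p below 0.05 (14% and 4.64% of all genes), and 11 had negative differences (median -0.26). Yars and Iars, for tyrosine and isoleucine, differed by -0.82 (adjusted p = 0.148) and -0.57 (adjusted p = 0.153).

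The other arms of the unfolded protein response, driven by ATF6 and IRE1, had 0 of 21 genes called by limma, and at an unadjusted p below 0.05, 10 were higher and 1 lower, beside 14% and 4.64% of all genes. The median was 0.48, and 18 differences were positive. The endoplasmic reticulum folding proteins Pdia3 and Hsp90b1 differed by 0.77 (adjusted p = 0.0549) and 0.70 (adjusted p = 0.0559). Named after their values were seen, the chaperone gene Hspa5 differed by 0.62 (adjusted p = 0.141), the IRE1 effector gene Xbp1 by 0.48 (adjusted p = 0.314) and Herpud1, of the degradation machinery, by -0.42 (adjusted p = 0.224). Leukocyte, fibroblast and adipocyte markers, given above, were higher on balance in the same mice, and their part in these differences was not tested.

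Relatives of the members by protein family had 0 of 21 called by limma, and at an unadjusted p below 0.05, 2 were higher and 1 lower, together no larger a share than the 18.7% of all genes (median 0.07). The sestrin gene Sesn3 differed by 0.78 (adjusted p = 0.123) and the Tribbles gene Trib1 by 0.80 (adjusted p = 0.182). Chac2, the paralogue of Chac1, read 4.42 and 4.83 in WT and 4.57 and 4.65 in dbTg, a difference of -0.02 (adjusted p = 0.977); it was named after its values were seen. Among 12 other tested genes tied to the response 0 rose and 1 fell (median 0.07; 2 higher and 1 lower at an unadjusted p below 0.05). The gene that fell was Lpin1, a phosphatidate phosphatase, which read 8.01 and 8.38 in WT and 7.22 and 6.87 in dbTg (difference -1.15, adjusted p = 0.0413). Its call ended under 7 of 15 alternatives, quantile normalization and the block among them. Of 16 tested genes of glutathione synthesis and recycling, the pathway of the Chac1 substrate, 0 were called, and at an unadjusted p below 0.05, 1 was higher and 1 lower (median 0.07). Gpx1 differed by 0.90 and Gstm1 by -0.62. Of 12 mitochondrial chaperones and proteases 0 were called, and at an unadjusted p below 0.05, 1 was higher and 0 lower (median -0.01, -0.04 to 0.07 with 1 array left out). The proteases Htra2 and Spg7 differed by 0.98 and -0.44. Over the 10 lists, 128 genes were tested, of which 0 rose and 2 fell, beside 2.01% and 0.203% of all genes. When the male WT array was left out 4 rose and 6 fell, when the female one was left out 7 rose and 3 fell, and when either dbTg array was left out 0 did. The calls over all tested genes moved alike, from 267 higher and 27 lower to 610 and 156, to 593 and 142, and to 4 and 0.

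**Figure D4:**
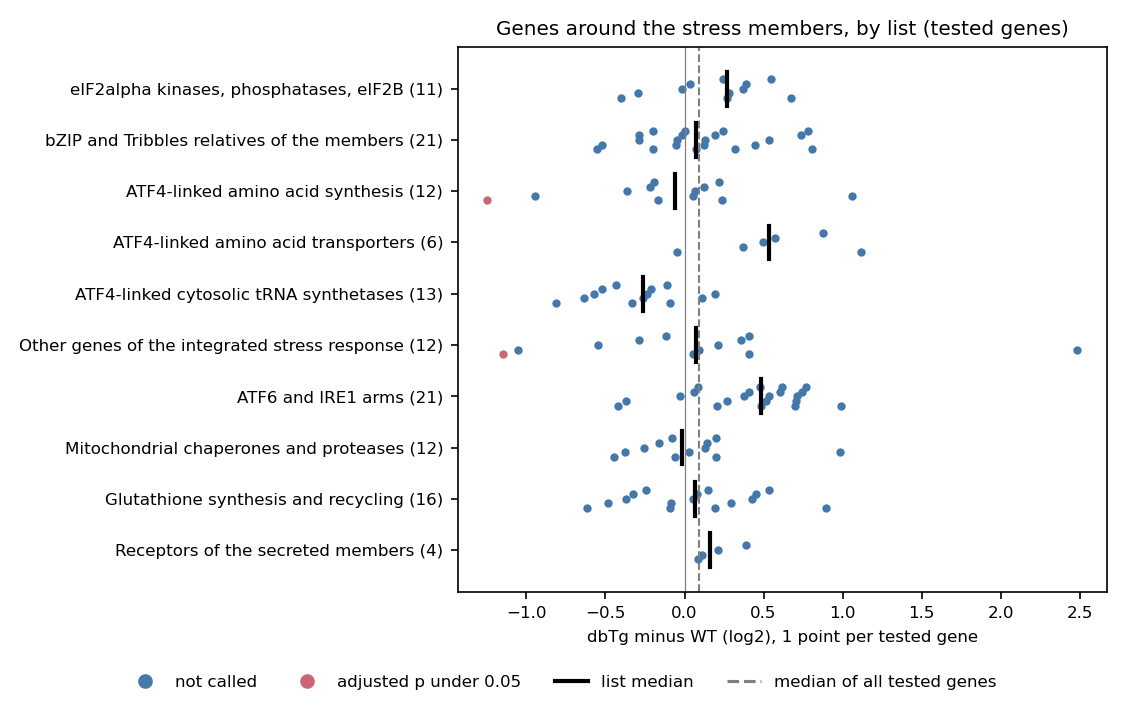
Differences, dbTg minus WT on the log2 scale, of the tested genes in each of 10 lists around the stress response (1 point per gene, number tested in brackets; black bars are list medians, the dashed line the median of all tested genes at 0.09). The 2 called genes, Gpt2 and Lpin1, are lower in dbTg, the list medians run from -0.26 for tRNA synthetases to 0.54 for amino acid transporters, and the point at 2.48 is Cdkn1a, which was not called.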

How the data were processed

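Total RNA from quadriceps was read on Affymetrix whole-transcript arrays, 1 per mouse (2 WT, 2 dbTg). Per the labels, the values the authors deposited are log2 RMA values from Affymetrix Expression Console, a tool the submitters' processing notes also name (version not given in the sources used here). RMA corrects background, normalizes by quantiles and summarises probes, which compresses differences at low values. Of 41345 probe sets, 23521 had 1 gene symbol in the platform annotation, 1814 several and 16010 none; only the first were named, and 23328 matched a RefSeq table (GRCm38.p6) by Entrez identifier. The probe set with the highest mean over the 4 arrays stood for its gene. Those not under the 40th percentile of that mean (1.48) were tested, 13308 of 22180 genes, with limma 3.58.1 in R 4.3.3 (eBayes with an intensity trend; 2 residual and 4.76 prior degrees of freedom; two-sided; Benjamini-Hochberg over all tested genes; threshold 0.05). A permutation test of 2 arrays against 2 cannot give a p below 0.333. The number of arrays limits the precision.

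The members and the gene lists were chosen with earlier results of these data known. All members are named. From each list the text names called genes (up to 4 in each direction by p) or else the 2 with the smallest p; other genes are marked as chosen after their values were seen or as not tested. The likeness rule took the 3 nearest genes to the tested members with the highest and the lowest difference, leaving out predicted, olfactory receptor and microRNA genes. Marker lists, named by the same rule, were read for muscle fibres, macrophages and leukocytes, endothelial cells, fibroblasts, adipocytes, smooth muscle cells and pericytes (0 of 8 called by limma; at an unadjusted p below 0.05, 1 higher and 2 lower; Acta2 at 0.91, Rgs5 at -0.51) and nerve and Schwann cells (0 of 4 called, 1 higher at an unadjusted p below 0.05; Gldn at 1.38, Pmp22 at 0.71). Alternatives were each array left out, a block for the replicate number, quantile normalization, median centring, other filters, other choices of probe set and other variance models. Gdf15 was not analysed here.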

Additional observations from a re-analysis of the deposited data

Results flagged for a closer look

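The differences of 4 genes had opposite signs in the male and the female pair of mice. Atf4 differed by 0.067 in the male pair and -0.45 in the female pair, Trib3 by 0.31 and -0.17, Sesn2 by 0.60 and -0.25, and Fgf21 by 0.17 and -0.46 (dbTg minus WT, log2 scale). Each pair holds 1 array of each group, so the difference between the sexes was not tested, and in the male pair the WT mouse was also older.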

How the results depend on the processing

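With 2 arrays a group, the calls rest on each dbTg array. Without dbTg replicate 1 or without dbTg replicate 2, the count of members that rose went from 2 to 0 and the count that fell from 1 to 0, with the lone dbTg array assumed to vary like the WT arrays, and the calls over all 13308 genes went from 267 higher and 27 lower to 4 and 0 in both cases; over all arrays left out in turn the counts ran from 0 to 2 and from 0 to 1. The count that fell was also 0 with the replicate number as a block and after quantile normalization. It was 0 as well without an intensity filter, with the filter at the 20th percentile and without an intensity trend. Calls over all tested genes, 267 higher and 27 lower as reported, fell to 63 and 2 with the block. After quantile normalization they were 120 and 7, and without the filter 165 and 7. At the 20th percentile they were 184 and 9, and without the trend 246 and 14. Fewer or more genes tested change the adjustment, and a block leaves fewer residual degrees of freedom. Otherwise the cause was not tested. With the replicate number as a block, Atf3 and Ddit3 kept their calls (adjusted p = 0.0294 and 0.0386), Chac1 did not (0.11), and the count of pathway genes that fell went from 2 to 0. Replicate number equals sex and is not stated to mark a shared litter or day; the deviations of replicate 1 from the group means correlated with r = 0.05 across 13308 genes. The sign turned for Atf5 after quantile normalization (-0.12), for Trib3 without WT replicate 1 (-0.29) and without dbTg replicate 2 (-0.05), and for Sesn2 without dbTg replicate 1 (-0.16), none of them called; with 1 array left out, Trib3 ran up to 0.43 and Sesn2 to 0.51, and Fgf21 was at 0.21 without WT replicate 2. The members' median ran from 0.05 to 0.19. Pathway genes called higher, 0 as reported, were 1 after median centring and up to 7 when an array was left out (4 without WT replicate 1, 7 without WT replicate 2); those called lower, 2 as reported, were 1 after quantile normalization and 0 to 6 with an array left out. List medians that moved by more than the spread between arrays were those of amino acid synthesis (-0.027 after median centring, -0.12 after quantile normalization, -0.12 to 0.044 with an array left out), mitochondrial chaperones (0.018, -0.10, and -0.040 to 0.073), glutathione genes (-0.071 after quantile normalization) and eIF2alpha regulators (0.064 after quantile normalization, 0.027 to 0.33 with an array left out). Trib3, Sesn2 and Asns were not tested with the filter at the 60th percentile, and Fgf21 was tested only with a lower filter or none (adjusted p = 0.814 and 0.816).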

Other observations

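Several stress-responsive genes of the pathway lists, named after their values were seen, differed more between the WT mice than between the dbTg mice. Cebpd, a C/EBP factor, read 1.28 and 3.60 in WT and 2.38 and 2.39 in dbTg. Cebpb, a partner of ATF4, read 3.18 and 4.98 in WT and 4.16 and 4.13 in dbTg. Ddit4, an inhibitor of mTORC1, read 1.92 and 3.58 in WT and 1.71 and 1.68 in dbTg, and Sesn1, a sestrin gene, read 4.50 and 6.20 against 4.79 and 4.80. Cdkn1a, the cell cycle inhibitor p21, read 3.14 and 6.51 in WT and 7.11 and 7.52 in dbTg (difference 2.48, limma adjusted p = 0.221). All of these were higher in the female WT mouse, as were Cth, Stc2 and Htra2. Batf3 and Vldlr, also named after their values were seen, went the other way. In the male and the female WT mouse Batf3 read 2.705 and 1.37 and Vldlr 8.40 and 7.25. Of the 128 tested genes of the lists, 10 were at least 1 apart (log2) between the WT arrays and 1 between the dbTg arrays, which is 7.81% and 0.781%, beside 3.68% and 1.07% of all 13308 tested genes. None of the 8 tested members was that far apart in either group. The WT mice differed in sex and in age, which cannot be told apart from each other or from other differences between single mice. The dbTg mice differed in sex but not in stated age.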
